A study of Rattus norvegicus with 4 samples.

Results

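Secreted Wnt antagonists and R-spondins were examined in the rat uterus before implantation: 10 genes, Sfrp1, Sfrp2, Sfrp4, Sfrp5, Dkk1, Dkk2, Dkk3, Wif1, Rspo1 and Rspo3, of the 18166 genes tested. Each was found by its symbol in the platform's probe-to-gene table, and each of the 10 had a single probe set. The uteri came from pregnant Sprague Dawley rats 10 to 12 weeks old and were taken on day 5 of pregnancy. In the ormeloxifene group (2 arrays) rats had been fed 1.25 mg per kg of ormeloxifene, prepared in gum acacia, on day 1, and in the vehicle group (2 arrays) they had received vehicle alone. Ormeloxifene is a contraceptive drug that binds oestrogen receptors and, by tissue, acts as their agonist or antagonist. Total RNA of the uterus was hybridised to Affymetrix whole-transcript arrays, and the number of rats behind each array is not stated. With only 4 arrays every value has limited precision.

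Wnt proteins are secreted signals that bind frizzled receptors together with the co-receptors Lrp5 and Lrp6, which stabilises beta-catenin and switches on target genes with TCF/LEF factors. Secreted frizzled-related proteins (Sfrp) and Wif1 bind Wnt proteins outside the cell, whereas Dickkopf proteins of the Dkk1 kind occupy the Lrp co-receptors. R-spondins do the opposite: through Lgr receptors they withdraw the ubiquitin ligases Rnf43 and Znrf3 that clear frizzled from the membrane, so that the cell responds more strongly to Wnt. In the uterus, Wnt signals between stroma and epithelium take part in gland formation, in implantation and in the decidual response.

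Within these 10 genes, the 2 largest differences were those of the antagonists Sfrp4 and Sfrp2, whose signals stood at 1.87 and 1.52 times the vehicle level in the ormeloxifene arrays. Both R-spondins were measured above vehicle too, Rspo3 at 1.40 times and Rspo1 at 1.21 times. Sfrp1, Sfrp5, Wif1 and the Dickkopf genes differed by 0.22 or less on the log2 scale in either direction. By limma with Benjamini-Hochberg adjustment over all 18166 genes, 0 of the 10 passed an adjusted p of 0.05 (all at adjusted p = 1.00), as did 0 of all genes tested (0.00%). At an unadjusted p under 0.05 stood 2 of the 10, Sfrp4 and Sfrp2, where 2.20% of all genes did. With the replicate number as a block the count was 3, Rspo3 being the added gene, where 6.76% of all genes stood. With 1 array left out at a time, the Sfrp4 difference ran from 0.66 to 1.14 on the log2 scale and that of Sfrp2 from 0.55 to 0.66. For a single gene, 2 arrays against 2 allow no exact permutation p under 0.333.

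The regions around the transcription starts of Sfrp2, Rspo1 and Rspo3 are shown because, after quantile normalization, their signals were above vehicle on both ormeloxifene arrays. Dkk1 was above vehicle in that way too, and its region is shown because Dkk1 is known as a target of the Wnt pathway it inhibits. On the values as deposited the groups overlapped for Rspo1 and Dkk1. RefSeq places all 10 genes on a chromosome of GRCr8. The table of start regions used here held 6 of the 10, and of Sfrp1, Sfrp4, Dkk2 and Dkk3 no sequence is printed. Each sequence runs from 250 bases before to 50 bases after the start, on the gene's own strand. Capitals mark matches on either strand to the motifs named in the next paragraph. The sequences lie on the plus strand at chr2:171387286-171387585 for Sfrp2, chr5:142536040-142536339 for Rspo1 and chr1:30112279-30112578 for Rspo3, and on the minus strand at chr1:237798601-237798900 for Dkk1.
Sfrp2: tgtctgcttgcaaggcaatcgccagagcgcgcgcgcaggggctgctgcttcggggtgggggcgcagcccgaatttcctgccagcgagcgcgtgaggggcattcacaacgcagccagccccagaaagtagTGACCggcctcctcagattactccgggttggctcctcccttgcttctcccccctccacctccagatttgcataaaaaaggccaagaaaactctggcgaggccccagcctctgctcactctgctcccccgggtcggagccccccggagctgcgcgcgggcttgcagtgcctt
Rspo1: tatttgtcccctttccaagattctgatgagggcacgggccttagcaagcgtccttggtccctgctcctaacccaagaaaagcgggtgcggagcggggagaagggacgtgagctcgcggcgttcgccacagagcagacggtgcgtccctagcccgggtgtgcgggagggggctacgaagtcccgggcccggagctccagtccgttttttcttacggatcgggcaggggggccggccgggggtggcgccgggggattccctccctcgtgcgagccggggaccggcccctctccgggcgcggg
Rspo3: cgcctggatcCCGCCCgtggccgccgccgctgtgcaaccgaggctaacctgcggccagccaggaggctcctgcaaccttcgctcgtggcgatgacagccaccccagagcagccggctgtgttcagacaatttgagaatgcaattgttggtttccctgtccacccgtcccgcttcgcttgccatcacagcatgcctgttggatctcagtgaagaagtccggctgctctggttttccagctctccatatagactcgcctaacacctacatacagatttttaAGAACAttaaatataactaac
Dkk1: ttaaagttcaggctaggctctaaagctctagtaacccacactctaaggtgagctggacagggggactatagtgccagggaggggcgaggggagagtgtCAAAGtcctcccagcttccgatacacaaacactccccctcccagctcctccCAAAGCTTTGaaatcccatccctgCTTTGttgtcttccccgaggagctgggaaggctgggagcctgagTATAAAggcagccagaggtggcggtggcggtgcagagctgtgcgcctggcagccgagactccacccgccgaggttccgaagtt

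A full oestrogen response element, GGTCANNNTGACC, had no match in the 6 regions and was held by 0.0269% of all 33469 regions of that length in the table. A single arm of it, GGTCA, which the full element contains, matched in Sfrp2 at bases -121 to -117 from the start, as the reverse complement, and in Sfrp5, and 40.5% of all regions hold it. The arm TGTTCT, recognised by progesterone and glucocorticoid receptors, matched in Rspo3 at bases 30 to 35 after the start, also as the reverse complement, against 20.7% of all regions. The GC box GGGCGG matched in Rspo3 at -240 to -235 and in Wif1 (33.1% of all regions). In Dkk1 the TCF/LEF core CTTTG matched 4 times between -152 and -73, with 2 of the matches side by side on opposite strands; Sfrp5 holds it too, and 53.8% of all regions hold it at least 1 time. Dkk1 also holds TATAAA, the TATA box, at -33 to -28 (14.2% of all regions). The Rspo1 region held none of the 6 motifs and consists of G and C for 68.7% of its bases, against a median of 51.7% over all regions. A match describes letters only, and none of these regions was assayed for binding.

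Values below are log2 signals after quantile normalization over all probe sets. A mean is given with its SD over the 2 arrays of a group, and a difference is ormeloxifene minus vehicle with its standard error from limma. The replicate numbers 1 and 2 occur in both groups. Exactly equal deposited values were found at 488 probe sets between the arrays numbered 1 and at 551 between those numbered 2, and the other 4 pairs had 0 such values. Differences within each number are therefore given beside the pooled ones. In bulk tissue, fewer cells of a type and less RNA per cell cannot be told apart.

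Sfrp4, a frizzled-related protein of the uterine stroma, gave signals of 8.99 and 8.89 on the vehicle arrays and of 10.08 and 9.60 on the ormeloxifene arrays. Both ormeloxifene arrays lay above both vehicle arrays, and the ormeloxifene arrays stood further apart from each other than the vehicle arrays did. On the values as deposited both ormeloxifene arrays lay above as well. There the vehicle arrays, at 8.74 and 9.14, stood further apart than the ormeloxifene arrays, at 9.79 and 9.84. After normalization the means were 8.94 ± 0.067 with vehicle and 9.84 ± 0.34 with ormeloxifene (SD, n = 2 each). The difference was 0.90 ± 0.24 (95% interval 0.35 to 1.45), and 0.319% of all genes had a larger one in either direction. By limma the unadjusted p was 0.00575 and the adjusted p 1.00. Within number 1 the Sfrp4 difference was 1.09 and within number 2 it was 0.71. Without ormeloxifene replicate 1 the Sfrp4 difference was 0.66, the lowest of the 12 alternatives run, and without ormeloxifene replicate 2 it was 1.14, the highest. When limma was fitted to the deposited values with the replicate number as a block, Sfrp4 passed the threshold (adjusted p = 0.0337), as did 0.462% of all genes. With the block on the quantile-normalized values it did not (adjusted p = 0.270), and 0.0275% of all genes did.

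For Sfrp2, which likewise binds Wnt proteins and is made by mesenchymal cells, the signals were 8.46 and 8.35 with vehicle and 9.028 and 9.003 with ormeloxifene. The 2 arrays of each group lay close together and the groups did not overlap. On the values as deposited the arrays of a group lay further apart, at 8.22 and 8.60 with vehicle and 8.81 and 9.23 with ormeloxifene, still without overlap. After normalization the means were 8.41 ± 0.078 and 9.02 ± 0.018, which gave a difference of 0.61 ± 0.20 (95% interval 0.13 to 1.08). By limma the unadjusted p was 0.0184 and the adjusted p 1.00. With limma on the values as deposited the unadjusted p was 0.0808. The Sfrp2 difference was 0.57 within number 1 and 0.65 within number 2, and it ran from 0.55 to 0.66 over the alternatives.

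The other 2 frizzled-related genes had smaller differences, with intervals that include 0. Sfrp1 gave 7.88 and 7.49 with vehicle and 7.83 and 7.33 with ormeloxifene. In each group the array numbered 1 was the higher, and the groups overlapped. On the values as deposited both ormeloxifene values (7.661 and 7.476) lay below the vehicle values (7.663 and 7.697), but the nearest were almost equal. The Sfrp1 difference was -0.10 ± 0.26 (95% interval -0.71 to 0.50). Sfrp5, at 5.93 and 5.73 with vehicle and 5.87 and 5.84 with ormeloxifene, had both ormeloxifene values inside the range of the vehicle values. Its difference was 0.027 ± 0.21 (95% interval -0.46 to 0.51).

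Wif1, the Wnt inhibitory factor, gave 6.32 and 5.79 with vehicle and 5.78 and 5.93 with ormeloxifene. The vehicle array numbered 1 stood above the other 3 arrays, which lay within 0.15 of each other on the log2 scale. The Wif1 difference was -0.20 ± 0.25 (95% interval -0.78 to 0.37), made of -0.55 within number 1 and 0.14 within number 2.

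**Figure D1:**
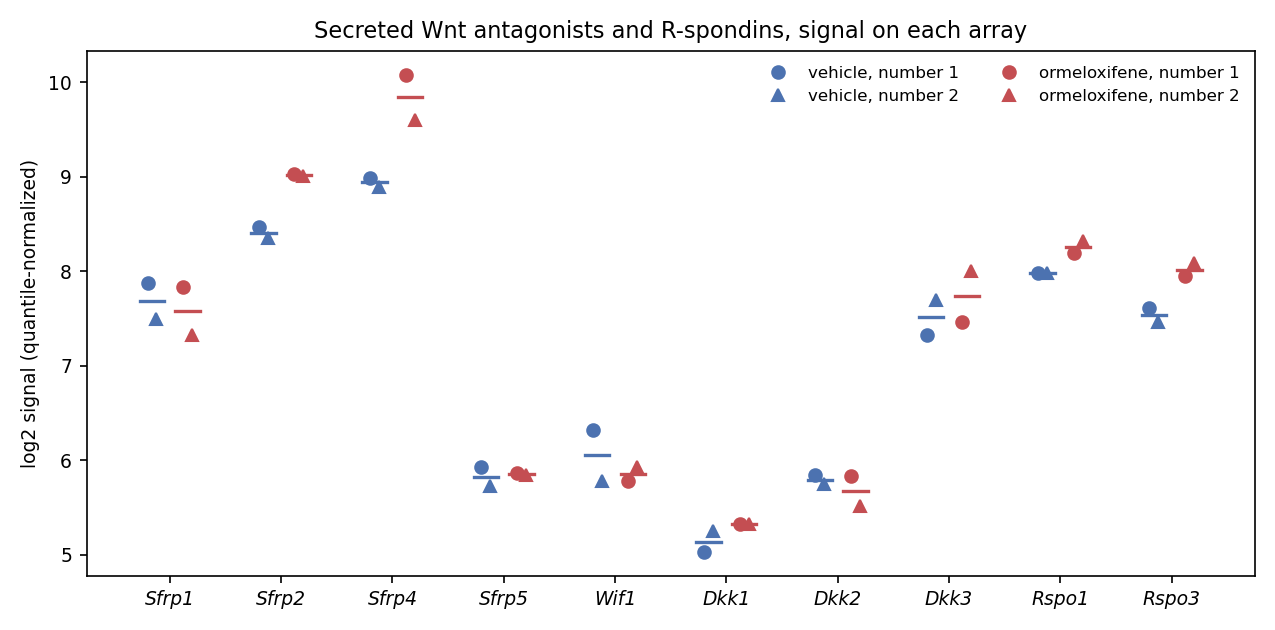
Quantile-normalized log2 signal (vertical axis) of each of the 10 genes on the 4 arrays; circles are arrays numbered 1, triangles arrays numbered 2, and short lines the mean of a group. Sfrp4 lies between 8.89 and 8.99 with vehicle and between 9.60 and 10.08 with ormeloxifene, whereas Sfrp1 and Dkk3 separate by number; signals of different genes come from different probe sets and are not compared.

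Of the Dickkopf genes, Dkk1, which blocks Lrp5 and Lrp6, gave 5.03 and 5.25 with vehicle and 5.32 and 5.33 with ormeloxifene. The groups did not overlap after normalization but did on the values as deposited, and the probe set was dim, at the 24.3th percentile of mean signal among the genes tested. The Dkk1 difference was 0.18 ± 0.21 (95% interval -0.30 to 0.67). Dkk2, which can act on the Lrp co-receptors as agonist or antagonist, gave 5.84 and 5.75 with vehicle and 5.84 and 5.51 with ormeloxifene, so that 1 ormeloxifene array lay within the vehicle range and the other below it; on the values as deposited both lay below. The Dkk2 difference was -0.12 ± 0.22 (95% interval -0.63 to 0.39). Dkk3, a divergent family member that is not known as a blocker of the Lrp co-receptors, gave 7.33 and 7.69 with vehicle and 7.466 and 8.001 with ormeloxifene. Here the arrays numbered 2 were the higher in both groups, and the groups overlapped. The Dkk3 difference was 0.22 ± 0.26 (95% interval -0.39 to 0.83).

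The R-spondins strengthen the Wnt response instead of blocking it. Rspo3 gave 7.61 and 7.46 with vehicle and 7.94 and 8.09 with ormeloxifene, and the groups did not overlap. The means were 7.54 ± 0.10 and 8.02 ± 0.10, which gave a difference of 0.48 ± 0.21 (95% interval -0.0039 to 0.96). By limma the unadjusted p was 0.0515 and the adjusted p 1.00. Within number 1 the Rspo3 difference was 0.34 and within number 2 it was 0.62. Its paralogue Rspo1 gave 7.98 on both vehicle arrays and 8.19 and 8.32 with ormeloxifene. The groups did not overlap after normalization, but on the values as deposited they did. The Rspo1 difference was 0.27 ± 0.20 (95% interval -0.20 to 0.75), 0.21 within number 1 and 0.34 within number 2.

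**Figure D2:**
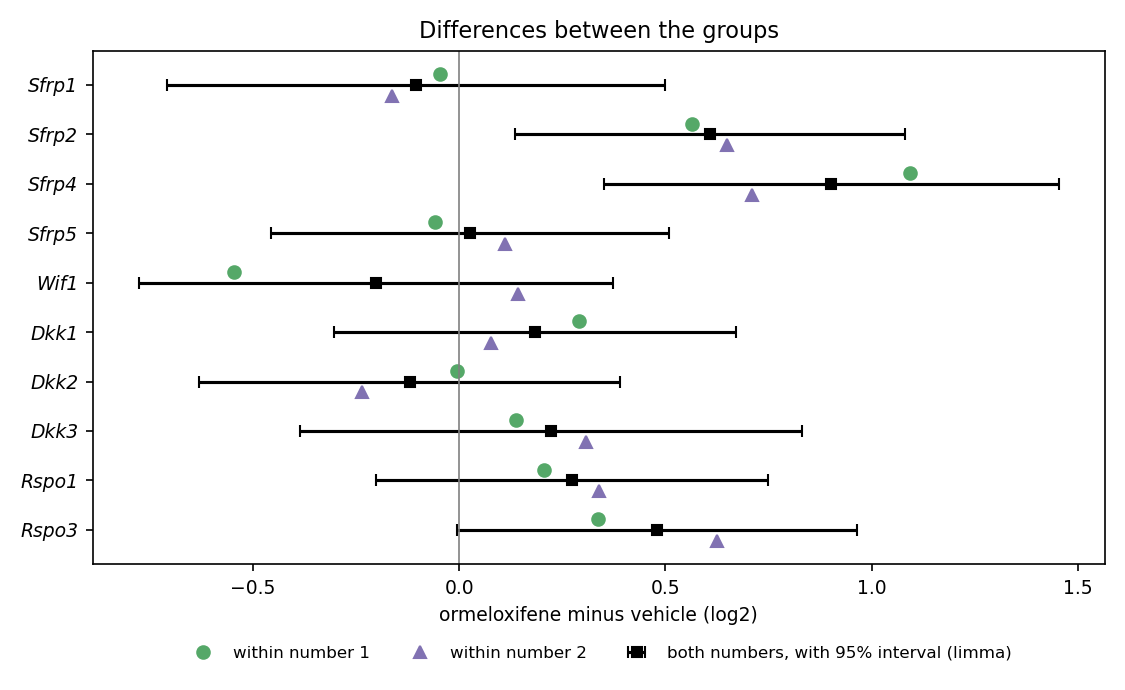
Difference between ormeloxifene and vehicle (log2, horizontal axis) for each gene; squares and bars are the limma estimate with its 95% interval, circles the difference within number 1 and triangles within number 2. The intervals of Sfrp4 (0.35 to 1.45) and Sfrp2 (0.13 to 1.08) lie above 0 and the other 8 include it, before any adjustment for the number of genes tested.

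Over the 10 genes, 7 were measured higher with ormeloxifene and 3 lower, where 53.4% of all genes tested were higher, and the median difference was 0.20 against 0.017 over all genes. The groups did not overlap in 5 of the 10, all of them higher, where 13.9% of all genes were higher without overlap. On the values as deposited the groups did not overlap in 5 of the 10 either, and in 17.2% of all genes, but the genes differed. Sfrp2, Sfrp4 and Rspo3 were higher (9.57% of all genes). Sfrp1, by a near tie, and Dkk2 were lower (7.65% of all genes). Of the 10, 2 reached 0.5 or more in absolute log2 difference, as did 3.63% of all genes. Antagonists and R-spondins, which act on the pathway in opposite ways, were both found among the 5 genes higher without overlap.

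After quantile normalization the 10 genes also differed in how much they followed the replicate number. In 4 of them (Sfrp1, Sfrp5, Dkk2 and Dkk3) the mean difference between numbers 2 and 1 was larger than the difference between the groups, as it was in 63.9% of all genes. For Dkk3 the number made a difference of 0.45 and the group one of 0.22, and for Sfrp1 they were -0.45 and -0.10. Rspo3 and Sfrp2 stood at the other end, with -0.00040 and -0.067 by number against 0.48 and 0.61 by group. The Rspo3 mean averages 0.14 between the ormeloxifene arrays and -0.14 between the vehicle arrays. Which genes followed the number depended on the normalization. On the values as deposited the arrays numbered 2 were the higher in both groups for Sfrp2 and Rspo3. Sfrp2 stood at 8.81 and 9.23 with ormeloxifene and 8.22 and 8.60 with vehicle, and Rspo3 at 7.76 and 8.28 and at 7.40 and 7.67. Sfrp1 was there no longer higher on number 1 in both groups. For Sfrp4 the difference by number after normalization was -0.29, which came mainly from the ormeloxifene arrays (-0.48, against -0.095 between the vehicle arrays). On the values as deposited its sign was the opposite. There Sfrp4 stood at 9.79 and 9.84 with ormeloxifene and at 8.74 and 9.14 with vehicle, so that it came mainly from the vehicle arrays.

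**Figure D3:**
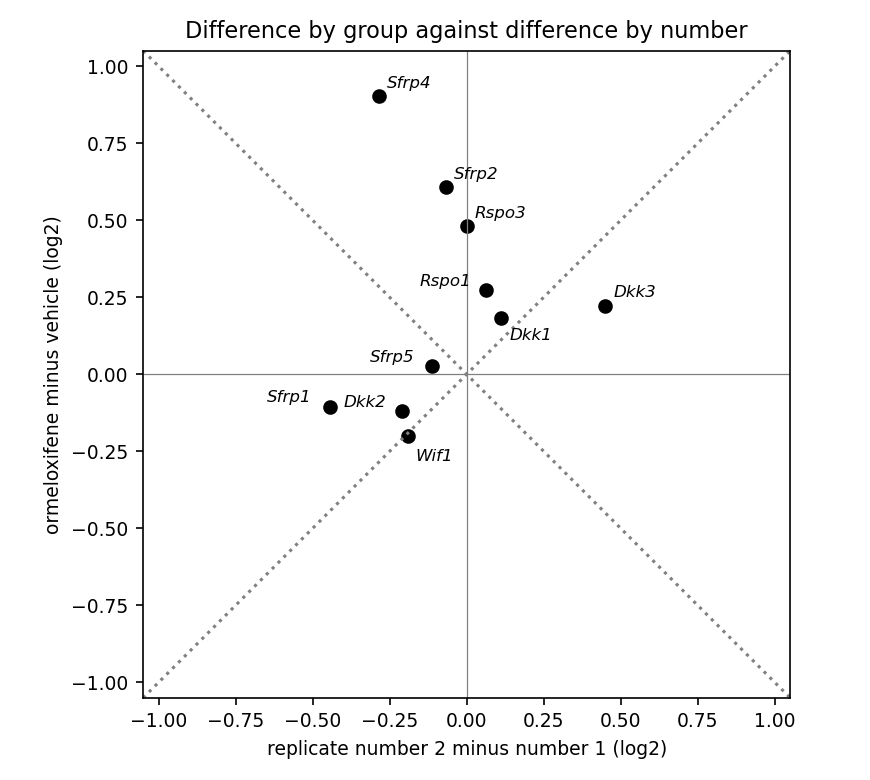
Mean difference between replicate numbers 2 and 1 (log2, horizontal axis) against the difference between ormeloxifene and vehicle (log2, vertical axis), 1 point per gene. On the dotted lines both are of equal size. All values are after quantile normalization, and differences by number were not the same on the values as deposited. Sfrp4, Sfrp2 and Rspo3 lie far above the horizontal axis, whereas Sfrp1 (-0.45 by number) and Dkk3 (0.45 by number) lie nearer to it than to the vertical axis.

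Genes whose values moved most like those of Sfrp4 were Gdf3, a ligand of the TGF-beta family, Hsd17b7, an enzyme of oestradiol and cholesterol synthesis, and Tmtc1, a transmembrane protein of the endoplasmic reticulum. Likeness was the root mean square difference between gene-centred values over the 4 arrays, which was 0.0504, 0.0833 and 0.0899 on the log2 scale. Their differences were 0.80 ± 0.23, 0.94 ± 0.27 and 0.91 ± 0.24. Gdf3 was dim, at the 4.97th percentile of signal. A likeness over 4 arrays is a description and carries no test.

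Other secreted modulators of the pathway were measured in 13 of 13 listed genes, 8 higher and 5 lower, with a median of 0.014. Sostdc1, a secreted antagonist of both Wnt and BMP signals, was the 1 member at an unadjusted p under 0.05 by limma, and it lay lower. Its signals were 10.47 and 10.43 with vehicle and 10.02 and 9.78 with ormeloxifene, a difference of -0.55 ± 0.21, with no overlap. This bright probe set (98.6th percentile) differed in the opposite direction to Sfrp4 and Sfrp2. Next in order of p came the BMP and nodal antagonist Cer1 (0.50 ± 0.23), at the 7.01th percentile of signal, the Lrp inhibitor Dkk4 (0.37 ± 0.21) and Ndp (0.35 ± 0.21), which encodes norrin, a ligand of Fzd4.

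The list of R-spondin and Dickkopf receptors and co-receptors also held the Wnt receptors Ror1, Ror2 and Ryk. Of its 12 genes 11 were measured, 6 higher and 5 lower, with a median of 0.031. None stood at an unadjusted p under 0.05 by limma, and 0 passed the adjusted threshold. The R-spondin receptor Lgr5 differed by -0.34 ± 0.31, the Dickkopf receptor Kremen2 by 0.23 ± 0.21, the ubiquitin ligase Rnf43 by 0.23 ± 0.24 and the Wnt receptor Ryk by -0.22 ± 0.23. Frizzled receptors were higher in 7 of the 9 measured, with a median of 0.11 and 0 at an unadjusted p under 0.05. The groups did not overlap in 4 of the 9, all higher, where 13.9% of all genes were higher without overlap. On the values as deposited they did not overlap in 2, Fzd1 and Fzd2, both higher, where 9.57% of all genes were so. Smallest in p were Fzd2 (0.38 ± 0.22), Fzd1 (0.35 ± 0.22), Fzd5 (0.32 ± 0.22) and Fzd4 (0.13 ± 0.23).

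Wnt ligands were measured in 19 of 19 listed genes, 7 higher and 12 lower, with a median of -0.023 and 0 at an unadjusted p under 0.05. The groups did not overlap in 7 of them, 6 lower and 1 higher, where 11.8% of all genes were lower without overlap; on the values as deposited 3 of the 19 did not overlap, near the 17.2% of all genes. Smallest in p were Wnt2 (-0.42 ± 0.25), Wnt16 (-0.32 ± 0.22), Wnt4 (-0.34 ± 0.24), a stromal signal of the decidual response, and Wnt3 (-0.30 ± 0.23). Target and feedback genes of the pathway were 7 higher and 8 lower of 15 measured, with a median of -0.092 and 0 at an unadjusted p under 0.05. Among them the receptor Tnfrsf19 differed by 0.45 ± 0.20, the hyaluronan receptor Cd44 by -0.43 ± 0.23, the growth regulator Myc by -0.31 ± 0.20 and the transcription factor Sp5 by 0.26 ± 0.20.

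Markers of the cell types of the uterus were set beside these values. Stroma markers were bright, with 12 of 13 measured and all 12 between the 89.7th and the 99.9th percentile of signal, and smooth muscle markers lay between the 79.4th and the 99.8th. Smooth muscle markers were measured higher with ormeloxifene in 9 of 9, at a median of 0.33, with 0 at an unadjusted p under 0.05. After normalization the groups did not overlap in 4 of the 9, all higher, where 13.9% of all genes were so. On the values as deposited they did not overlap in 7 of the 9, all higher, where 9.57% of all genes were so. A summed signal adds the unlogged signals of a list, so that its brightest probe sets weigh most, for smooth muscle Tagln and Actg2. For the smooth muscle markers it was 13.35 to 13.52 with vehicle and 13.65 to 13.79 with ormeloxifene on the log2 scale. This sum lay apart in the same direction as the signals of Sfrp4, Sfrp2 and the R-spondins. Without vehicle replicate 2 the median of the smooth muscle markers was 0.092, and without ormeloxifene replicate 1 it was 0.20. Examples are Synpo2 (0.45 ± 0.22) and Myh11 (0.37 ± 0.22), both of the contractile apparatus. Stroma markers were higher in 7 of 12, at a median of 0.11, which was 0.011 without ormeloxifene replicate 1 and 0.031 without vehicle replicate 1. Their summed signal was 14.20 to 14.28 with vehicle and 14.25 to 14.37 with ormeloxifene, which overlap. Hand2 (-0.31 ± 0.21) and Hoxa10 (0.41 ± 0.31), transcription factors of uterine stroma, went opposite ways.

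Epithelium markers were lower in 9 of 13, at a median of -0.11 (-0.025 without vehicle replicate 2) and a summed signal of 11.30 to 11.57 with vehicle and 11.43 to 11.45 with ormeloxifene. Elf3 (-0.48 ± 0.21), an epithelial transcription factor, was the 1 marker at an unadjusted p under 0.05, and the keratin Krt7 differed by -0.45 ± 0.32. Mesothelium markers had 4 of 6 higher and a median of 0.19 (0.017 without ormeloxifene replicate 2 and 0.068 without vehicle replicate 1), with Wt1 at -0.48 ± 0.21 and Upk1b at 0.34 ± 0.21, and a summed signal of 9.76 to 9.86 with vehicle and 9.77 to 9.80 with ormeloxifene. Endothelium markers had 5 of 7 higher and a median of 0.16 (0.035 without vehicle replicate 1 and 0.084 without ormeloxifene replicate 2), with Cdh5 at 0.25 ± 0.21 and Tek at 0.27 ± 0.26. Their summed signal was 10.36 to 10.50 with vehicle and 10.52 to 10.71 with ormeloxifene. It too lay apart in the direction of Sfrp4, though narrowly. After normalization 3 of the 7 endothelium markers were without overlap between the groups, all higher, where 13.9% of all genes were higher without overlap. On the values as deposited 0 of the 7 were without overlap, where 17.2% of all genes were. Immune cell markers had 8 of 10 higher and a median of 0.092 (0.17 without ormeloxifene replicate 1), with the T cell genes Cd3d at 0.25 ± 0.22 and Cd3e at 0.21 ± 0.21. Their summed signal was 10.67 to 10.80 with vehicle and 10.72 to 10.85 with ormeloxifene. Blood cell markers were not analysed here. The part of the muscle, stroma and endothelium shares in the values of Sfrp4, Sfrp2 and the R-spondins was not tested.

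**Figure D4:**
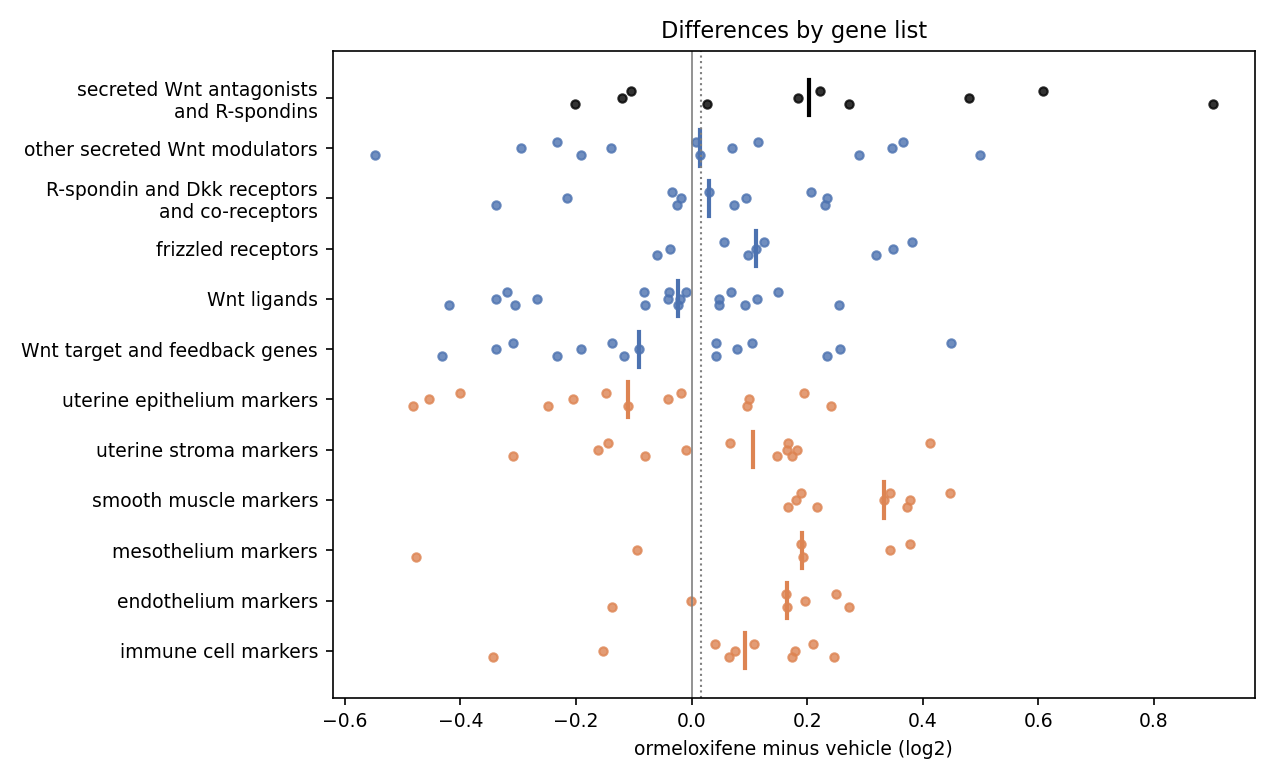
Difference between ormeloxifene and vehicle (log2, horizontal axis) for every measured gene of each list; black points are the 10 antagonists and R-spondins, blue points other Wnt pathway lists and orange points cell type markers. Thick bars are list medians and the dotted line is the median of all genes (0.017); smooth muscle markers (median 0.33) all lie above 0, and Sfrp4 (0.90) lies farthest to the right.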

How the data were processed

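The deposited table held log2 signals of 36685 probe sets on 4 arrays, from 0.92 to 13.59. Per the submitters' processing notes they came from Affymetrix Expression Console, with version, summary method and build not given in the sources used here. Column medians ran from 5.67 to 5.93, so the columns were quantile-normalized. Platform annotation gave 18511 probe sets a single symbol, and the brightest one was kept per gene, which left 18166 genes. The groups were compared with limma 3.58.1 in R 4.3.3 (lmFit and eBayes, 2-sided, no covariate, Benjamini-Hochberg adjustment over all genes, threshold 0.05), tested on simulated data. The p-values rest on the spread between the 2 labelled biological replicates of a group, moderated towards the spread shared by all genes tested. Degrees of freedom were 2 residual and 7.55 after moderation, so a standard error is not the replicate spread of that gene alone. Named genes were the 10 members, in each pathway list the 4 of smallest p, in each marker list 2, and the 3 genes most like the member of smallest p. Members, lists and motifs were chosen with earlier results of these data known. Alternatives covered scaling, replicate block, dim genes, probe set choice, moderation and left-out arrays.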

Additional observations from a re-analysis of the deposited data

How the results depend on the processing

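The directions of Sfrp2, Sfrp4, Dkk1, Rspo1 and Rspo3 were the same under each of the 12 alternatives, except that Dkk1 has no value with the dimmest 25% of genes left out. The others reversed in settings that left out 1 array, in which a lone array is assumed to vary like the opposite group. Over these settings Sfrp1 ran from -0.36 to 0.15 (0.15 without ormeloxifene replicate 2 and 0.089 without vehicle replicate 1), Dkk2 from -0.28 to 0.042 and Dkk3 from -0.044 to 0.49 (both reversed without ormeloxifene replicate 2), Wif1 from -0.47 to 0.067 (reversed without vehicle replicate 1) and Sfrp5 from -0.072 to 0.13 (reversed without vehicle replicate 2). At an adjusted p under 0.05 stood 0 of the 10, and 1 (Sfrp4) when the replicate block was fitted to deposited values, with 39.5 degrees of freedom after moderation against 1 residual. At an unadjusted p under 0.05 stood 2; the count was 1 on the values as deposited, 0 to 2 with 1 array left out, and 3 with either replicate block, with the dimmest genes left out or with trend and robust moderation. Over all genes, 2.20% stood at that unadjusted p in the fit reported and 6.76% with the block on the quantile-normalized values. The shares of all genes in the other settings are not given here, so those counts cannot be read against them. The median of the 10 ran from 0.11 to 0.28 with 1 array left out, that of other secreted modulators from -0.031 to 0.13 and that of Wnt ligands from -0.086 to -0.031. With the replicate block no other gene of the 10 passed the adjusted threshold. The cause of these differences was not tested. The labels do not say whether a replicate number pairs animals. Over all genes, 0 passed the adjusted threshold in the fit reported, on deposited values and with all probe sets tested, 1 with arrays centred or probe sets averaged, 4 with the dimmest genes left out or with trend and robust moderation, 0 to 3 with 1 array left out, 5 with the block and 84 with it on deposited values; 399 had an unadjusted p under 0.05 in the fit reported. Signal over background was not measured in the table, so the limit for dim probe sets such as Dkk1 is unknown.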
